A study of Mus musculus with 6 samples.

Results

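Macrod2 and Fam84a are 2 of the 16344 genes measured in mouse ovarian tumours treated with the CSF1R inhibitor AZD7507 or with vehicle. Both genes were chosen by their own values, which were higher in every AZD7507 tumour than in every vehicle tumour. Their difference between the groups is therefore given as a description, with no test, and tests are kept for genes that the choice did not use.

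MACROD2 is an enzyme with a macrodomain, a fold that binds ADP-ribose, and it removes single ADP-ribose units from acidic residues of proteins. Its known substrates include the kinase GSK3B, a part of the complex that marks beta-catenin for destruction in the Wnt pathway. The gene is extremely long, and its human counterpart lies in a fragile region that is often deleted in tumours. FAM84A, now named LRATD1, has a domain related to that of lecithin retinol acyltransferase (LRAT), the enzyme that makes retinyl esters, and its own function is little known. FAM84B is its closest relative.

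Each tumour grew in a syngeneic mouse after intraperitoneal injection of 60577, a mouse high-grade serous ovarian cancer cell line, so the model rests on 1 cell line. Tumours had 21 days to establish, and the protocol, worded the same for every sample, gives carboplatin in 3 weekly cycles followed by 84 days of daily AZD7507 by oral gavage. The labels separate 3 tumours that received AZD7507 from 3 labelled vehicle, all taken at humane endpoint, and name no mouse strain, age, batch or dose. CSF1R is the receptor on which most tissue macrophages depend. Total RNA depleted of ribosomal RNA was sequenced, and p-values here measure only the spread between these 6 tumours.

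The table holds log2 RPKM (a read density scaled to gene length and library size, on a log2 scale), and no counts, so the depth of each library is unknown. Differences below are AZD7507 minus vehicle in log2 RPKM, and "called" means an adjusted p under 0.05 in limma across all genes. Over all rows, 3 genes (0.0184%) were called higher and 55 (0.337%) lower. Both members are in these and the following counts, and among the 3 called higher. Having been chosen for higher values, they are not read as results here. At an unadjusted p under 0.05, 541 genes (3.31%) were higher and 898 (5.49%) lower. The groups did not overlap for 1200 genes higher with AZD7507 (7.34%) and for 1311 lower (8.02%). Vehicle 2 and AZD7507 2 stand apart. Their 9 measured pancreatic acinar markers summed to 4871 and 5370 RPKM, against 0.84 to 9.81 RPKM in the other 4 tumours. Among markers of the labelled tumour, Krt18 averaged 7.02 and 7.43 log2 RPKM in vehicle and AZD7507 tumours and Wt1 6.41 and 6.52, while Pax8 was near the bottom of the scale at -3.20 and -3.11.

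The 2 genes differ in build. Macrod2 (ENSMUSG00000068205) runs from 140395309 to 142392966 on the plus strand of chromosome 2 in GRCm38, a span of 1.998 Mb of which 10308 bases (0.516%) are exonic. It has up to 19 exons in a coding transcript, and 3 measured genes have a longer span. Fam84a (ENSMUSG00000020607) lies on the minus strand of chromosome 12, from 14146830 to 14152054, with 2 exons that fill 82.4% of its 5225 bases. No other annotated gene overlaps it.

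The sequence before each start is shown to set both genes side by side at the level of their promoters. It comes from RefSeq's table on GRCm38.p6, as the part of the 250 bases before the RefSeq start that lies outside the annotated gene, at chr2:140395180-140395308 on the plus strand and chr12:14152055-14152288 on the minus strand. Capitals mark CCAAT boxes (read CCAAT, or ATTGG where the box is on the opposite strand) and GC boxes (read GGGCGG, or CCGCCC where the box is on the opposite strand).
Macrod2: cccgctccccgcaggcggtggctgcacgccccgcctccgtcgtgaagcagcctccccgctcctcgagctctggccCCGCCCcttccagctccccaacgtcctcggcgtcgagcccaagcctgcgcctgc
Fam84a: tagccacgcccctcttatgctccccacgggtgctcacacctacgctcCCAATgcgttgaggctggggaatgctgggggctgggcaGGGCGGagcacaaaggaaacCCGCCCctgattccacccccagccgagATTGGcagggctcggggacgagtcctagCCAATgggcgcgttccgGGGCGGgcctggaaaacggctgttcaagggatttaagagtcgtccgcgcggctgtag

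Both 250-base windows are rich in G and C, at 76.4% for Macrod2 and 64.8% for Fam84a against a median of 52.0% over the windows of 27025 genes. Over the full windows, read on both strands, Macrod2 held 1 CCAAT box and 3 GC boxes, and Fam84a held 3 of each. CCAAT occurred in 34.5% of all windows and GGGCGG in 32.9%, so either box is common. Neither window held the TATA box TATAAA (present in 12.97% of windows), the Myc-type E-box CACGTG (in 6.05%), the AP-1 motif TGACTCA (in 4.43%) or the cAMP response motif TGACGTCA (in 1.62%). Neither held the STAT motif TTCNNNGAA (in 7.18%), the ETS motif CCGGAAGT (in 2.93%) or the longer NF-Y motif CCAATCA (in 7.65%), which contains the CCAAT box. GGAATG, the TEAD motif (12.6%), occurred once in the Fam84a window and not in that of Macrod2.

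The longest run of letters common to both windows was found after the sequences were seen. It holds the CCAAT box and is shown in capitals within 30 bases, at chr2:140395365-140395394 on the plus strand and chr12:14152110-14152139 on the minus strand. For Macrod2 this stretch lies inside the annotated gene, which starts at 140395309.
Macrod2 run: gggcggagcAGCCAATGGGCGgcggcgctg
Fam84a run: acgagtcctAGCCAATGGGCGcgttccggg

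These 12 letters occurred in 24 of the 27025 gene windows (0.0888%). Of the 14 other measured genes that hold them, 0 were called. At an unadjusted p under 0.05, 0 were higher (against 3.31% of all genes) and 1 was lower (against 5.49%). A difference above 0 was seen in 8 of the 14 (57.1%, against 55.9% of measured genes with a window), with a median of 0.01. The 3973 other measured genes with a CCAAT box had a median of 0.05, against 0.03 over the 10957 measured genes with a window. A match in these letters is a description and not a binding site.

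Macrod2 was low and nearly level in the vehicle tumours and higher in each AZD7507 tumour. Its log2 RPKM was 0.98, 0.98 and 0.94 in vehicle tumours 1 to 3. In AZD7507 tumours 1 to 3 it was 2.46, 2.15 and 2.53. The groups did not overlap, and 1.16 separated the lowest AZD7507 tumour from the highest vehicle tumour. On the linear scale, 1.98, 1.98 and 1.91 RPKM stood against 5.49, 4.42 and 5.78 RPKM. The mean went from 0.97 ± 0.03 to 2.38 ± 0.20 log2 RPKM (SD, n = 3 each), a difference of 1.41, or 2.66-fold.

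By its mean, Macrod2 moved from the 26.1 percentile of all genes in vehicle tumours to the 51.6 percentile with AZD7507. The vehicle tumours were unusually alike: 1.43% of genes had a smaller SD there. Among AZD7507 tumours its spread was ordinary, with 58.4% of genes less variable. The lowest of them was AZD7507 2, one of the acinar-rich libraries. Between the acinar-rich pair alone, AZD7507 2 minus Vehicle 2, the difference was 1.16, and in the other 4 tumours it was 1.53. No other gene had a wider gap in the upward direction, and 19 had a larger mean difference, 9 of them with groups that did not overlap.

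Fam84a was well expressed in both groups. Its log2 RPKM was 3.64, 3.40 and 3.61 in vehicle tumours 1 to 3. In AZD7507 tumours 1 to 3 it was 4.42, 4.49 and 4.29. Again the groups did not overlap, with a gap of 0.65. In RPKM the vehicle tumours held 12.5, 10.6 and 12.2, and the AZD7507 tumours 21.4, 22.4 and 19.5. The mean was 3.55 ± 0.13 and 4.40 ± 0.10 log2 RPKM (SD, n = 3 each), a difference of 0.85, or 1.80-fold.

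Fam84a went from the 75.8 to the 88.3 percentile of all genes by its mean. Its spread was similar in both groups, where 24.8% and 25.9% of genes had a smaller SD. Its vehicle tumours were lowest in Vehicle 2, and its AZD7507 tumours highest in AZD7507 2, both acinar-rich. Between that pair the difference was 1.08, and in the other 4 tumours 0.73. A wider upward gap was seen in 7 genes, Macrod2 among them, and a larger mean difference in 172, of which 65 had groups that did not overlap.

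**Figure D1:**
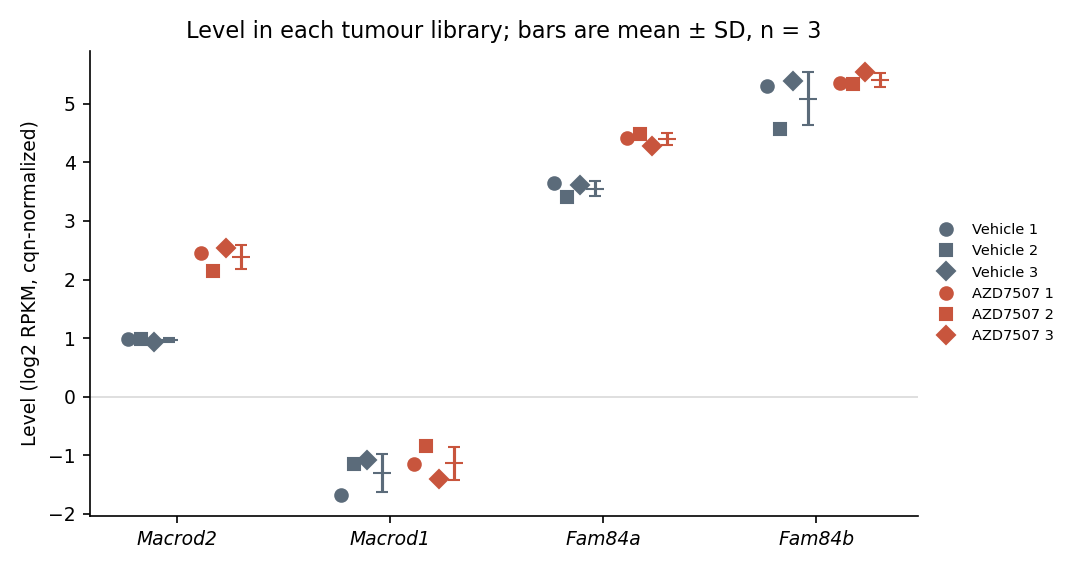
Level of Macrod2, Macrod1, Fam84a and Fam84b in each tumour, in log2 RPKM on the vertical axis. Each gene has 3 vehicle and 3 AZD7507 tumours, each tumour shown as a point beside its group mean and SD. Macrod2 lies between 0.94 and 0.98 with vehicle and between 2.15 and 2.53 with AZD7507, and Fam84a between 3.40 and 3.64 and between 4.29 and 4.49.

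The members did not follow each other within the groups. Over all 6 tumours their Pearson r was 0.94, which largely restates that both were higher with AZD7507, and over the 4 tumours that were not acinar-rich it was 0.99. For deviations from the group means r was -0.57 over the same 6 tumours. AZD7507 2 shows this: it was the lowest of its group for Macrod2, at -0.23 from the mean, and the highest for Fam84a, at 0.09. The level of Fam84a over Macrod2, per length, was 2.58 ± 0.14 on the log2 scale with vehicle and 2.02 ± 0.30 with AZD7507 (SD, n = 3 each). Those ratios did not overlap, at 2.42 to 2.67 against 1.75 to 2.34. They are built from the values that the choice used, and they restate the larger rise of Macrod2.

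The closest relatives of both genes did not pass the test. Macrod1, the mitochondrial macrodomain hydrolase, averaged -1.30 ± 0.32 log2 RPKM with vehicle and -1.13 ± 0.29 with AZD7507 (SD, n = 3 each). AZD7507 tumours exceeded vehicle tumours by 0.16 (SE 0.31), with a limma adjusted p of 0.93. Fam84b averaged 5.08 ± 0.45 with vehicle and 5.41 ± 0.12 with AZD7507, higher by 0.33 (SE 0.22), with a limma adjusted p of 0.75. Between the acinar-rich pair alone Fam84b differed by 0.77, and in the other 4 tumours by 0.11. Macrod2 over Macrod1 was 2.65, 2.13 and 2.01 in vehicle tumours and 3.61, 2.98 and 3.94 with AZD7507 on the log2 scale. The groups did not overlap, which the choice of Macrod2 for its rise made likely. Fam84a over Fam84b was -1.66, -1.16 and -1.78 against -0.93, -0.85 and -1.26, and these overlapped.

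Genes inside and around Macrod2 were examined because position played no part in the choice. Of 9 annotated genes that overlap it, 2 were measured, both on the opposite strand. Flrt3, a membrane protein of cell adhesion, lies within the span of Macrod2. It was at 0.03, -0.35 and 0.34 log2 RPKM with vehicle and 0.27, 0.72 and 0.46 with AZD7507, and the groups overlapped (difference 0.47, SE 0.25, limma adjusted p = 0.66). Between the acinar-rich pair alone Flrt3 differed by 1.07, and in the other 4 tumours by 0.18. Calr-ps, a pseudogene of calreticulin, was at 4.24, 4.21 and 4.04 against 4.40, 4.65 and 4.67, without overlap (difference 0.41, SE 0.12, limma adjusted p = 0.33). Its parent gene Calr, a chaperone of the endoplasmic reticulum, differed by a like amount, 0.39 (SE 0.14, limma adjusted p = 0.47). Of the 436 stretches of 50 letters in the annotated Calr-ps transcript, 10 (2.29%) occur without a mismatch in a Calr transcript. Whether reads of one gene were counted for the other was not tested, so the value of Calr-ps is uncertain. Exons of both genes share 0 bases with exons of Macrod2. Whether reads were counted by strand or over introns is not given in the sources used here, and in introns reads of Macrod2 and of these genes could not be told apart without strand.

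Across 26 neighbours, the overlapping genes and the 6 nearest measured on each side of each member, 0 were called by limma. At an unadjusted p under 0.05, 1 was higher (3.85%, against 3.31% of all genes), Calr-ps, and 2 were lower (7.69%, against 5.49%). The lower genes were Snx5, a sorting nexin, at -0.41 (limma adjusted p = 0.32), and Jag1, a Notch ligand, at -0.30 (limma unadjusted p = 0.049). The groups did not overlap upward for 3 of the 26 (11.5%, against 7.34% of all genes): Calr-ps, Ndufaf5 at 0.22 and Btbd3 at 0.31. The median difference of the 26 was 0.07, and 17 of them were above 0 (65.4%, against 54.5% of all genes).

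The nearest genes outside Macrod2 had smaller differences, a contrast that the choice of Macrod2 for its rise made likely. Ndufaf5, an assembly factor of respiratory complex I, and Esf1, a ribosome biogenesis factor, lie to its left, with differences of 0.22 each. Tasp1, the protease that cleaves MLL, differed by 0.17, and Kif16b, an endosomal kinesin on the right, by 0.01. Around Fam84a, the nearest measured gene was the pseudogene Gm9847, 343 kb away, at 0.23, and the others lie 563 to 2827 kb away. Trib2 differed by 0.43, Fam49a by 0.34, Mycn by 0.30, E2f6 by 0.11, Nbas by 0.09, Smc6 by 0.08 and Ddx1 by 0.05. Below 0 were Greb1 at -0.54, Gm6736 at -0.25, Lpin1 at -0.14 and Rock2 at -0.03. For all of these genes around Fam84a the groups overlapped. The widest values were -0.54 for Greb1, near Fam84a, and 0.47 for Flrt3.

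**Figure D2:**
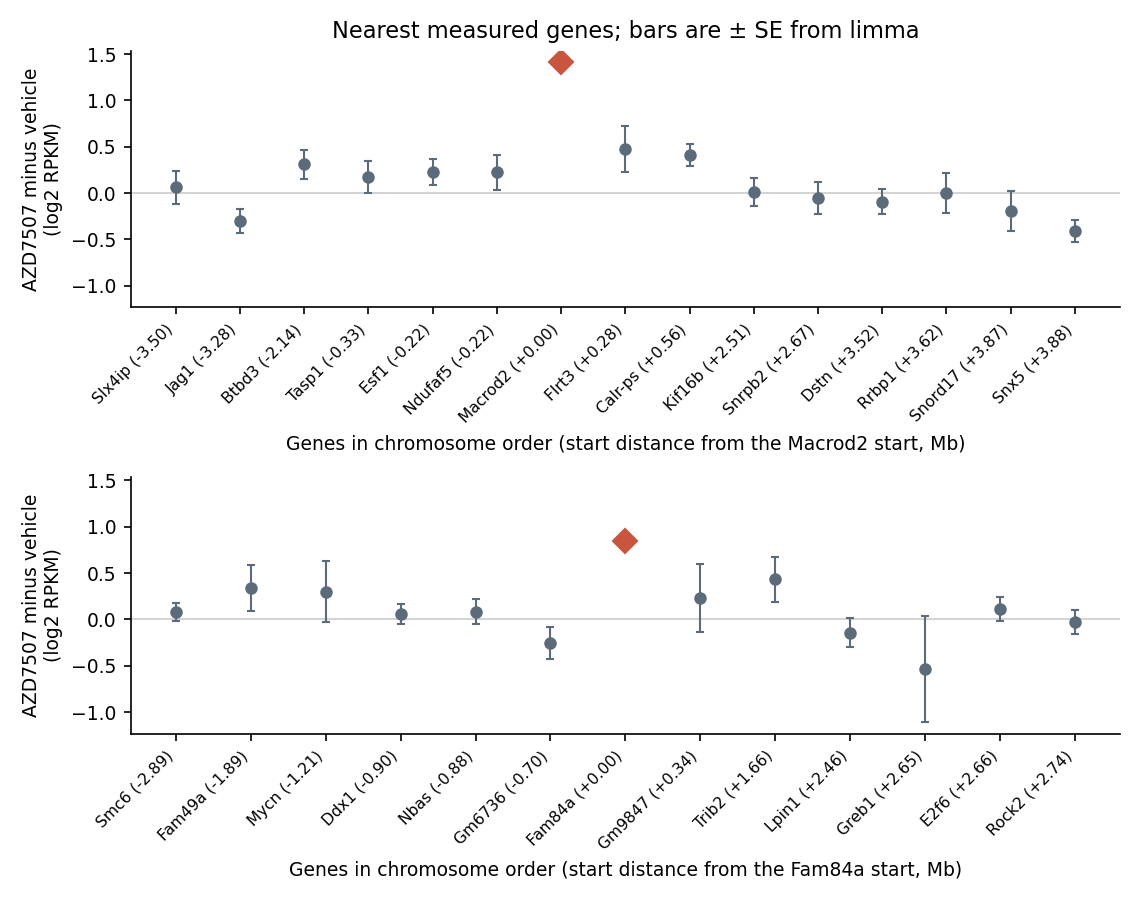
Differences (AZD7507 minus vehicle, log2 RPKM, vertical axis) of the members, as diamonds, and of their measured neighbours, as circles with SE from limma, in chromosome order with the distance of their starts in Mb. Neighbours of both genes lie between -0.54 and 0.47. Macrod2 at 1.41 and Fam84a at 0.85 were chosen for their rise.

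Genes that add, remove or fuel ADP-ribose lay on both sides of 0. Of 54 listed, 47 others were measured: 24 were above 0 and 23 below, with a median of 0.00 against 0.03 for all genes. None was called by limma. At an unadjusted p under 0.05, 0 were higher (against 3.31% of all genes) and 2 lower (4.26%, against 5.49%). Among 9 other macrodomain genes the median was 0.08. H2afy2, the histone macroH2A2, differed by 0.50 (limma adjusted p = 0.71). Oard1, which removes ADP-ribose from glutamate, differed by 0.24 (limma adjusted p = 0.69), and Parp14 by -0.14 (limma adjusted p = 0.81).

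Of 7 further hydrolases, Nudt16, a Nudix enzyme, had the smallest p, with a difference of -0.31 (unadjusted p = 0.026, limma adjusted p = 0.48). Adprh, which acts on ADP-ribosylated arginine, differed by -0.22 and Adprhl2, which acts on serine, by 0.13. The 14 ADP-ribosyltransferases, the writers of the mark, had a median of -0.04. Parp8 differed by -0.34, Parp2 by -0.16 and Parp11 by 0.18, and 0 of the 14 had an unadjusted p under 0.05. Parp10, a known writer on GSK3B, differed by 0.24 and Parp1 by -0.10. Among 17 genes of NAD synthesis and use, Sirt7, a nuclear deacylase, differed by -0.38 (unadjusted p = 0.012, limma adjusted p = 0.35), Naprt by 0.27 and Sirt1 by -0.23.

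Gsk3b, the substrate named above, was level at 4.71 and 4.75 log2 RPKM, a difference of 0.04 (limma adjusted p = 0.95). Of 20 measured genes of the destruction complex and of canonical Wnt targets, 0 were called by limma and 0 had an unadjusted p under 0.05, with a median of 0.04. Axin2, a direct Wnt target and feedback inhibitor, differed by -0.04. Myc differed by 0.43 with groups that did not overlap (limma adjusted p = 0.58). The receptor gene Lgr5 differed by 0.81 (limma adjusted p = 0.81), and Notum, an enzyme that inactivates Wnt ligands, by -0.31. In the complex itself, Amer1 differed by 0.23, Csnk1a1 by -0.20 and Btrc by 0.19.

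For Fam84a, 20 of 28 listed genes of the LRAT-type family and of retinoid handling were measured besides it. None was called by limma, and at an unadjusted p under 0.05, 1 was higher and 0 lower, with a median of 0.15. That gene was Dhrs9, a retinol dehydrogenase, with a difference of 0.97 (SE 0.26, unadjusted p = 0.0070, limma adjusted p = 0.28). Rdh10, which makes retinal, differed by 0.54 (limma adjusted p = 0.61). Rbp4, the plasma retinol carrier, averaged 2.56 and 4.06 log2 RPKM with a wide error of the difference (SE 0.73, limma adjusted p = 0.62). Pla2g16, a family member that acts as a phospholipase, differed by -0.16 (limma adjusted p = 0.86), and 3 other family members, Lrat among them, had no row.

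**Figure D3:**
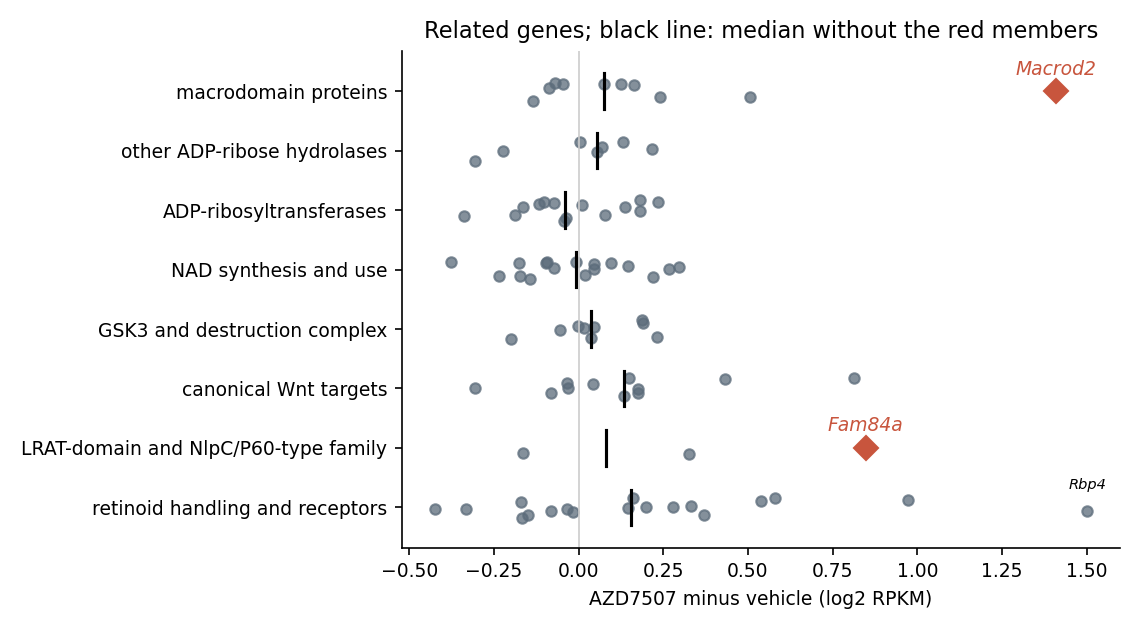
Differences (AZD7507 minus vehicle, log2 RPKM) of single genes in the lists around the members, each gene a point in its own list, with the members marked apart. Genes other than the members range from -0.38 to 0.50 in the 4 ADP-ribose lists, vertical bars are medians without the members, and Rbp4 lies farthest right of the retinoid genes.

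Macrod2 is one of 122 measured genes with a span of at least 500 kb, and the other 121 were compared with shorter genes. Of those 121, 91 (75.2%) had a difference above 0, against 54.5% of all genes, and their median was 0.21 against 0.03, with quartiles of 0.00 and 0.45. Macrod2 at 1.41 lies above the upper quartile, which its choice for higher values made likely. Of the 121, 0 were called by limma, while at an unadjusted p under 0.05, 13 were higher (10.7%, against 3.31% of all genes) and 5 lower (4.13%, against 5.49%). The groups did not overlap upward for 11 (9.09%, against 7.34% of all genes) and downward for 7 (5.79%, against 8.02%). Leaving out 1 tumour at a time, their median ran from 0.13 without Vehicle 2 to 0.30 without Vehicle 3, and the share above 0 from 67.8% without AZD7507 1 to 74.4%. Medians in shorter classes of span, a division chosen after the data were seen, were 0.03 below 10 kb, 0.02 from 10 to 50 kb, 0.02 from 50 to 200 kb and 0.05 from 200 to 500 kb.

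Members of this long class went both ways. Kcnq5, a potassium channel, differed by 0.74 (limma adjusted p = 0.17). Arhgap15 differed by -1.54 (limma adjusted p = 0.096) and Dock2, a regulator of leukocyte migration, by -1.51 (limma adjusted p = 0.10). The 3 measured genes longer than Macrod2, named after their values were seen, were Fgfr2 at 0.49, the receptor phosphatase Ptprd at 0.98 and Dmd, which encodes dystrophin, at 0.92. Their limma adjusted p were 0.35, 0.40 and 0.64, and for Dmd the groups overlapped. The acinar-rich Vehicle 2 was the lowest tumour for Dmd, at 5.88 against 7.42 and 7.48 in Vehicle 1 and 3, and for Ptprd, at 6.57 against 7.22 and 7.49. Among 18 other large genes at common fragile sites, 13 (72.2%, against 54.5% of all genes) were above 0 with a median of 0.17, and 0 were called by limma. At an unadjusted p under 0.05, 1 was higher (5.56%, against 3.31% of all genes), Ptprd (limma adjusted p = 0.40), and 0 were lower (against 5.49%). Dlg2, a synaptic scaffold, differed by 0.73 and the phosphodiesterase Pde4d by 0.33. Wwox, another fragile gene, differed by 0.00 and Sdk1 by -0.74.

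**Figure D4:**
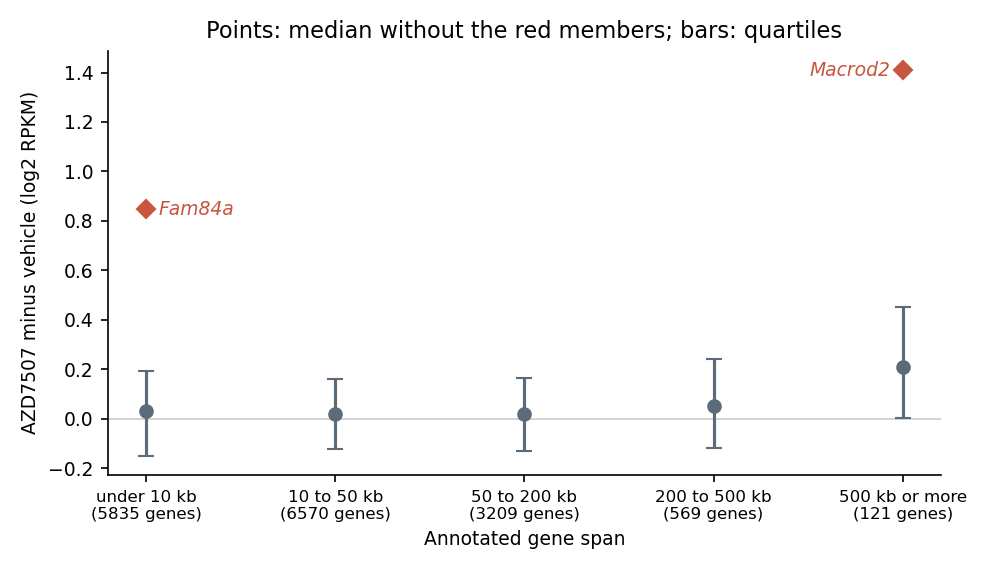
Differences (AZD7507 minus vehicle, log2 RPKM, vertical axis) by class of annotated gene span, as medians with bars from the lower to the upper quartile, and the members as diamonds. The median is 0.21 for the 121 other genes of at least 500 kb and between 0.02 and 0.05 in the 4 shorter classes, and Macrod2 is at 1.41, with Fam84a at 0.85 in the shortest class.

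Genes whose values ran alongside the members were ranked by Pearson r over the 6 tumours, among 3838 genes with a mean of at least 0 log2 RPKM and an SD of at least 0.3. Because both members separate the groups, these r mostly restate the group difference, and all points share their libraries. With Macrod2, 27 genes had an r of at least 0.9. The 10 highest were the ubiquitin-conjugating enzyme Ube2e2 (0.98), Kcnq5 (0.98), Steap4 (0.97), Aldh18a1 (0.96), Ptprn (0.95), Aff2 (0.95), Il10 (0.94), Smpdl3b (0.93), Tmem35a (0.93) and Iigp1 (0.93). With Fam84a, 36 genes reached that r, led by Kcnq5 (0.98), Steap4 (0.97), the transcription factor Lhx6 (0.97), Ifi47 (0.97), Ndufa4 (0.96), Il10 (0.95), Dusp5 (0.95), Exo5 (0.94), Kcnh2 (0.94) and Dlx4os (0.94).

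For 11 genes r was at least 0.9 with both members. In all 11 the groups did not overlap, against 7.34% of all genes upward. Ranking by r with members that separate the groups favours such genes. Steap4, a metalloreductase, stood at 2.68, 2.52 and 2.47 log2 RPKM with vehicle and 3.34, 3.40 and 3.40 with AZD7507, and differed by 0.82 (SE 0.10) with a limma adjusted p of 0.035. It was ranked here for r with genes that separate the groups, and with any 1 tumour left out 0 genes were called higher, Steap4 included. Kcnq5 was at 0.31, 0.31 and 0.36 against 1.16, 1.06 and 0.99. Il10, the anti-inflammatory cytokine gene, averaged 0.16 and 1.25 log2 RPKM (limma adjusted p = 0.14). The interferon-inducible GTPase gene Iigp1 averaged 0.52 and 2.22 (limma adjusted p = 0.072). By the smaller of their r with both, the leading 10 also held Polr2j, Nol3, Ptprn, Aldh18a1, Fam13c and Lhx6.

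**Figure D5:**
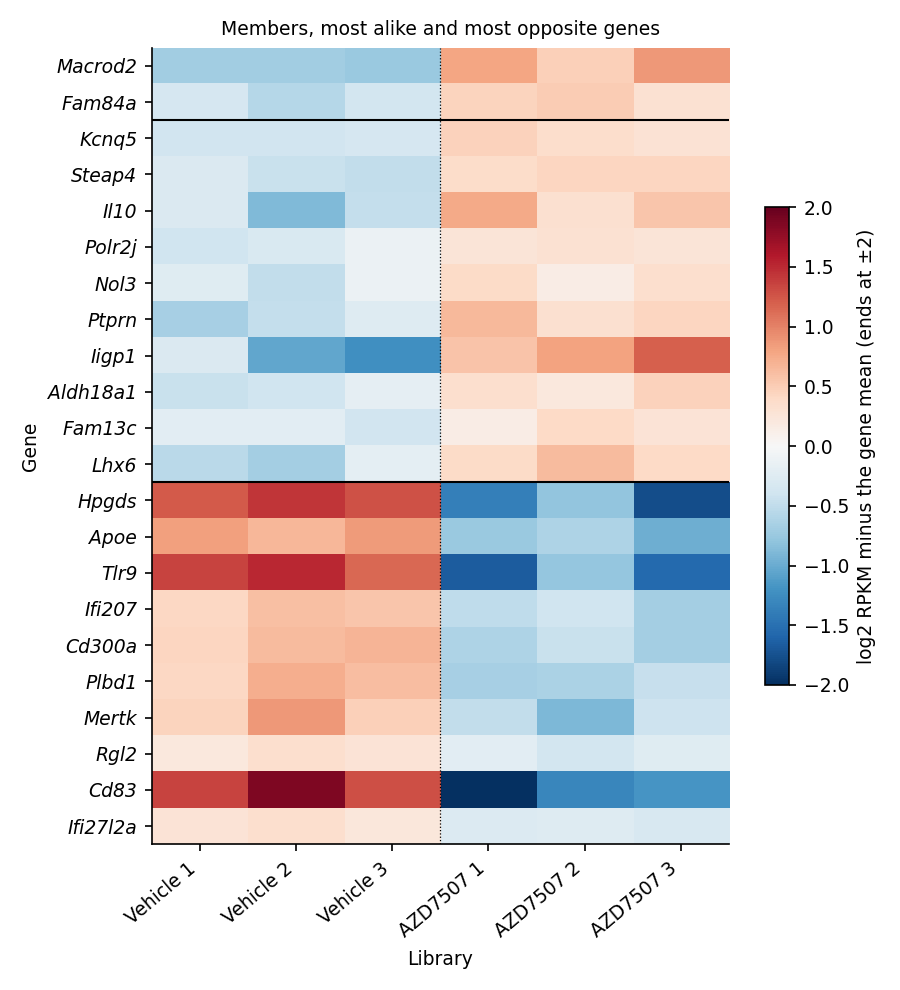
Level in each tumour (columns) minus the gene's own mean, in log2 RPKM as colour, for the members, the 10 genes most alike to both and the 5 most opposite to each (rows). Kcnq5 and Steap4 follow both members over the 6 tumours with r of 0.97 to 0.98, and Hpgds runs opposite to Macrod2.

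More genes ran opposite to the members: 168 had an r of -0.9 or lower with Macrod2, 152 with Fam84a and 113 with both. For Macrod2 the lowest were Hpgds, a prostaglandin D synthase (-0.996), the lipid carrier gene Apoe (-0.99), the DNA sensor gene Tlr9 (-0.99), Ifi207 (-0.99) and the inhibitory receptor gene Cd300a (-0.99). For Fam84a they were Plbd1 (-0.99), the phagocytic receptor gene Mertk (-0.99), Rgl2 (-0.99), Cd83 (-0.98) and Ifi27l2a (-0.97). Hpgds went from 1.66 to -0.95 log2 RPKM, and Apoe from 8.62 to 7.06.

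Macrophage markers moved opposite to both members across the groups. All 16 were lower with AZD7507, 6 of them called by limma, and 14 (87.5%) did not overlap between the groups, against 8.02% of all genes. With any 1 vehicle tumour left out, 0 genes were called lower, so these 6 calls ended, and without AZD7507 1, 2 or 3 the calls over all genes were 14, 1 and 2. Their summed level was 453 to 741 RPKM in vehicle tumours and 95.6 to 230 RPKM in AZD7507 tumours, and the least abundant, Cd163, averaged -1.08 and -2.03 log2 RPKM. The 741 was in the acinar-rich Vehicle 2, with 453 and 484 in Vehicle 1 and 3. Csf1r, which encodes the drug's target, went from 4.97 to 2.35 log2 RPKM (limma adjusted p = 0.035). Their median r was -0.88 with Macrod2 and -0.89 with Fam84a. In bulk tumours, fewer cells of a type and less RNA per cell cannot be told apart.

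The other marker lists held 0 called genes. Differences were above 0 for 12 of 14 epithelial markers (median 0.23) and 8 of 9 mesothelial markers (median 0.26), against 54.5% of all genes. Differences were below 0 for 10 of 11 fibroblast markers (median -0.25). Wt1 and Krt19 are in both the epithelial and the mesothelial list, so those lists are not independent. The 14 measured epithelial markers summed to 422 to 648 RPKM with vehicle and 591 to 731 with AZD7507, and their median r was 0.24 with Macrod2 and 0.34 with Fam84a. Both low ends were in acinar-rich libraries: 422 in Vehicle 2, against 575 and 648 in Vehicle 1 and 3, and 591 in AZD7507 2. The 9 mesothelial markers summed to 576 to 886 and 766 to 1088 RPKM, with median r of 0.47 and 0.50. Their low ends were in the same 2 libraries, and Vehicle 1 and 3 held 886 and 850 RPKM. Endothelial markers summed to 41.5 to 53.3 against 57.6 to 60.4 RPKM, a sum in which the most abundant genes weigh most. Each of the 9 endothelial genes overlapped between the groups, with 7 above 0, 2 below and a median of 0.10. Fibroblast markers summed to 584 to 871 against 617 to 723 RPKM, with the 871 in Vehicle 2 and the 617 in AZD7507 2. The 5 measured T cell markers summed to 4.84 to 7.18 against 2.90 to 6.49 RPKM, and the 5 of B and plasma cells to 12.9 to 26.7 against 6.63 to 18.5. At an unadjusted p under 0.05 in limma, 2 of 14 epithelial, 1 of 9 mesothelial and 1 of 3 neuronal markers (Ptprn) were higher, against 3.31% of all genes. Lower were 2 of 5 T cell and 1 of 11 fibroblast markers, against 5.49% of all genes. Of 12 neuronal and endocrine markers 3 were measured, at 1.90 to 2.08 against 2.95 to 4.13 RPKM in sum. The part of these cell types in the values of Macrod2 and Fam84a was not tested.

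Within the groups other genes ran with the members. By deviations from the group means over the 6 tumours, Macrod2 followed Kif7 (0.99), Gas1 (0.99), Ptpdc1 (0.99), Crip1 (0.98) and Ninl (0.98). These r rest on the acinar-rich AZD7507 2, where all 5 genes and Macrod2 were lowest of their group: Gas1 was at 6.10 log2 RPKM there against 7.15 and 7.31 in the other AZD7507 tumours. Over the 4 tumours that were not acinar-rich, r with Macrod2, group difference included, ran from -0.74 for Kif7 to 0.996 for Crip1. These 5 did not share its group difference: theirs were -0.46, -0.24, -0.13, -0.02 and -0.18. Fam84a followed Snora2b (0.99), Slco2a1 (0.98), Snora17 (0.98), Wfdc1 (0.98) and the epithelial transcription factor gene Ehf (0.98), and the top 5 of the 2 members held 0 genes in common. All 5 were lowest of the vehicle tumours in Vehicle 2 and highest of the AZD7507 tumours in AZD7507 2, both acinar-rich, and Wfdc1 was at 1.48 in Vehicle 2 against 2.34 and 2.25. Over the other 4 tumours r with Fam84a was 0.32 for Snora2b, -0.63 for Slco2a1, -0.21 for Snora17, -0.73 for Wfdc1 and -0.69 for Ehf.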

How the data were processed

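Bulk RNA-seq of 6 tumours was analysed, 3 per group as the labels give them. The deposited values are log2 RPKM, which by the name of the deposited table the authors normalised with cqn (conditional quantile normalization, a correction for GC content and length that can shift long or GC-rich genes). Per the submitters' processing notes, BWA 0.7.15-r1140 and HTSeq were used with mm10 and GRCm38, while the strand setting and the annotation are not given in the sources used here. The files used hold no counts, so depth and counting error are unknown. No column of samples was left out. Symbols and positions came from GENCODE M21 for GRCm38 and covered 16306 of 16344 rows. RefSeq windows were matched by symbol (Fam84a as Lratd1).

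All rows were fitted in limma 3.58.1 (R 4.3.3) with a trended, robust prior and no covariates, 2-sided, with Benjamini-Hochberg adjustment over all rows, and the code was tested on simulated data. The groups carry no pairing or batch label. Members and gene lists were chosen with earlier results of these data known. Named genes were the members, their neighbours, the 3 smallest p of each list, further macrodomain, hydrolase and LRAT-type genes, and the 10 highest and 5 lowest r per member (5 highest for deviations, among genes with a within-group SD of at least 0.2). Unnamed gene models were skipped. The other genes given as values were chosen after their values were seen.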

Additional observations from a re-analysis of the deposited data

How the results depend on the processing

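Macrod2 kept a difference of 1.33 to 1.53 under 13 of 14 alternatives, and with a pseudocount of 1 it was 1.07. Fam84a kept 0.77 to 0.90 under 13, and without both acinar-rich libraries it was 0.73. Their r ran from 0.93 to 0.99. The number of genes called higher was 3, both members included. It was 14 with array weights, 1 with a constant variance prior, 1 without both acinar-rich libraries and 0 leaving out any 1 library in turn. The number called lower was 55, and it was 143 with array weights, 13 without both acinar-rich libraries and 0 to 14 leaving out 1 library in turn (0 without each vehicle library, and 14, 1 and 2 without AZD7507 1, 2 and 3). Leaving a library out leaves fewer samples, and the unadjusted counts then ran from 257 to 1082 higher and from 606 to 1359 lower. Genes of large span called went from 0 to 1 with array weights. The neighbours and the ADP-ribose, GSK3 and Wnt, and LRAT and retinoid lists had 0 called under all 14. Median centring, quantile normalization, a pseudocount of 0.1 and a minimum mean log2 RPKM of 0 (14014 genes) kept both counts within 1.5 times. No difference or median reversed among those recomputed, apart from the ADP-ribose median, which stayed within -0.03 and 0.02. No paired analysis was possible because the labels give no numbers that pair samples. Depth is unknown, and 3 tumours a group limit precision.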
